A study of Mus musculus with 2 samples.

Results

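The TSC22 domain family comprises *Tsc22d1*, *Tsc22d2*, *Tsc22d3* and *Tsc22d4*, and *Tsc22d3* encodes the glucocorticoid-induced leucine zipper, GILZ. Members were taken as every probe, other than the control probes of the array maker, whose gene name in the scanner output or whose current RefSeq symbol was one of these names. This gave 4 genes of the 27790 on the array and 9 probes of 41164. A probe was called detected when its signal was well above background, by the flag of the scanner software, in at least 1 line on both arrays. Of the family, 3 genes and 7 probes were detected, against 12540 genes and 19141 probes on the whole array.

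The study compared 2 mouse melanoma cell lines by hybridising both to the same arrays. B16F1-GFP-M is the maternal line, B16F1 melanoma cells that carry a GFP expression vector. B16F1-GFP-D derives from dormant cells. They were recovered by sorting GFP-positive cells from the pooled organs of control and immunised mice that were tumour-free a year after injection of B16F1-GFP cells, and the line was grown from a single clone. Both lines were cultured without treatment in DMEM with serum, so GFP and the absence of treatment are common to both. On array 1 B16F1-GFP-M RNA was labelled with Cy5 and B16F1-GFP-D RNA with Cy3, and on array 2 the dyes were exchanged. The labels name no separate cultures, so the arrays count as 1 replicate of each line. No test between the lines was possible, and the SD given below is the spread between 2 dye orientations, not between cultures. Whether a difference belongs to dormant cells in general or to this clone cannot be told apart.

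TSC22 domain proteins share a short conserved domain followed by a leucine zipper, through which they form homodimers and heterodimers. *Tsc22d1* was found as a gene induced by transforming growth factor beta (TGF-beta), *Tsc22d3* is a direct target of the glucocorticoid receptor and of FOXO transcription factors, and *Tsc22d2* and *Tsc22d4* were named for their resemblance to them. GILZ binds the NF-kappaB subunit p65, the AP-1 proteins Fos and Jun, Ras and Raf, and is known for its anti-inflammatory and immunosuppressive actions. The family also associates with the NRBP pseudokinases and the WNK kinases of cell volume control. The genes have long and short transcript variants, which a probe near the 3′ end does not separate.

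*Tsc22d3* was measured by 3 probes of 60 bases, all on the minus strand of chromosome X in the mm9 build that the scanner output uses. From the 5′ to the 3′ side of the transcript they lie at chrX:137074951-137075010, chrX:137074393-137074452 and chrX:137074267-137074327, and cover 744 bp from end to end. The first 30 bases of each are shown because the size of the difference between the lines depended on which of them was read. Capitals mark the stop triplets TAA, TAG and TGA in any reading frame.
Tsc22d3 probe 1: aTGActgttcctaTGAagaagccacttgtg
Tsc22d3 probe 2: gtgcTGActacaTAGaatggggtTGAgaga
Tsc22d3 probe 3: ttctttttTAAgttcttgtggggaaacttt
Over all 60 bases, probe 2 holds a stop triplet in 3 of the 3 forward frames, and probes 1 and 3 in 2 frames each. Probes 1 and 2 are listed in the scanner output with the same 2 RefSeq transcript variants, and probe 3 with a cDNA record only. The longest run of bases that any of the 3 shares with a probe of another family member is 7. The transcripts of the paralogues were not compared. Exon and untranslated region boundaries were not analysed here.

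Among the detected members *Tsc22d3*, read from its brightest probe, was more than 2-fold lower in B16F1-GFP-D on both arrays. *Tsc22d1*, also lower on both arrays with a mean log2 ratio of -0.41, and *Tsc22d4*, with 0.26, stayed within 2-fold. The less bright probes of *Tsc22d3*, with means of -0.87 and -0.39, stayed within 2-fold too. *Tsc22d2* was too dim to read. Ratios are given as B16F1-GFP-D over the maternal line on the log2 scale, and a gene counted as called at a ratio of at least 1 in size, that is 2-fold, with the same sign on the 2 arrays. This rule sets a size and tests nothing. The brightest probe stood for a gene. By this rule 1 of the 3 detected members was called, *Tsc22d3*, against 5.02% of all detected genes in either direction, 3.09% higher and 1.94% lower. The paper had already named *Tsc22d3* as lower in this comparison, and the members were chosen with that known. No enrichment is therefore read from this count.

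*Tsc22d3* probe 3, its brightest, had log2 intensities of 8.66 on array 1 and 8.55 on array 2 in B16F1-GFP-M. In B16F1-GFP-D it had 7.47 and 7.40. On each array the B16F1-GFP-M level lay above the B16F1-GFP-D level. The log2 ratio was -1.19 on array 1 and -1.16 on array 2, with a mean of -1.17 ± 0.02 (SD over 2 arrays), which is 2.26-fold lower. In the 2184 detected genes of similar brightness, within 0.5 of its mean log2 intensity, the pooled SD between arrays was 0.14, and 4.49% were called. Over all detected genes, 180 had a lower mean ratio than *Tsc22d3*, or 1.44%. Since each array holds bulk RNA, fewer cells that express the gene and less of its RNA per cell cannot be told apart.

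The other probes of *Tsc22d3* gave the same direction with smaller sizes. Probe 2 had log2 intensities of 8.31 and 8.30 in B16F1-GFP-M and of 7.44 on both arrays in B16F1-GFP-D, and a mean log2 ratio of -0.87 ± 0.01. Probe 1 had 7.78 and 7.52 in B16F1-GFP-M, 7.34 and 7.17 in B16F1-GFP-D, and a mean log2 ratio of -0.39 ± 0.07. Each of the 3 probes passed the background flag for either line on either array, and on each array the maternal line had the higher level. Only probe 3 was past 2-fold on both arrays, so 1 of the 7 detected probes of the family was called, against 4.16% of all detected probes. No enrichment is read from this count of probes either.

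The size of the *Tsc22d3* ratio thus increased from the 5′-most to the 3′-most probe on each array. The range between the 3 probe means was 0.78 on the log2 scale. Of the 1395 genes with 3 or more detected probes, 9.18% had a range at least as wide, and the median range was 0.33. The order of the 3 probes was the same under the 5 ways of processing compared, with ranges from 0.74 to 0.97. With the ratios of the scanner software the means were -0.75, -1.35 and -1.72 from probe 1 to probe 3, and with no offset added to the background-corrected intensities -0.61, -1.19 and -1.56. The raw signals of probe 3 were dim, between 3.76 and 4.002 times the local background in B16F1-GFP-D and between 8.77 and 10.3 times in B16F1-GFP-M. For probe 1 these were 3.22 to 3.97 times in B16F1-GFP-D and 4.48 to 5.31 times in B16F1-GFP-M. The part of background, and of transcript ends, in the difference between the probes was not tested.

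**Figure D1:**
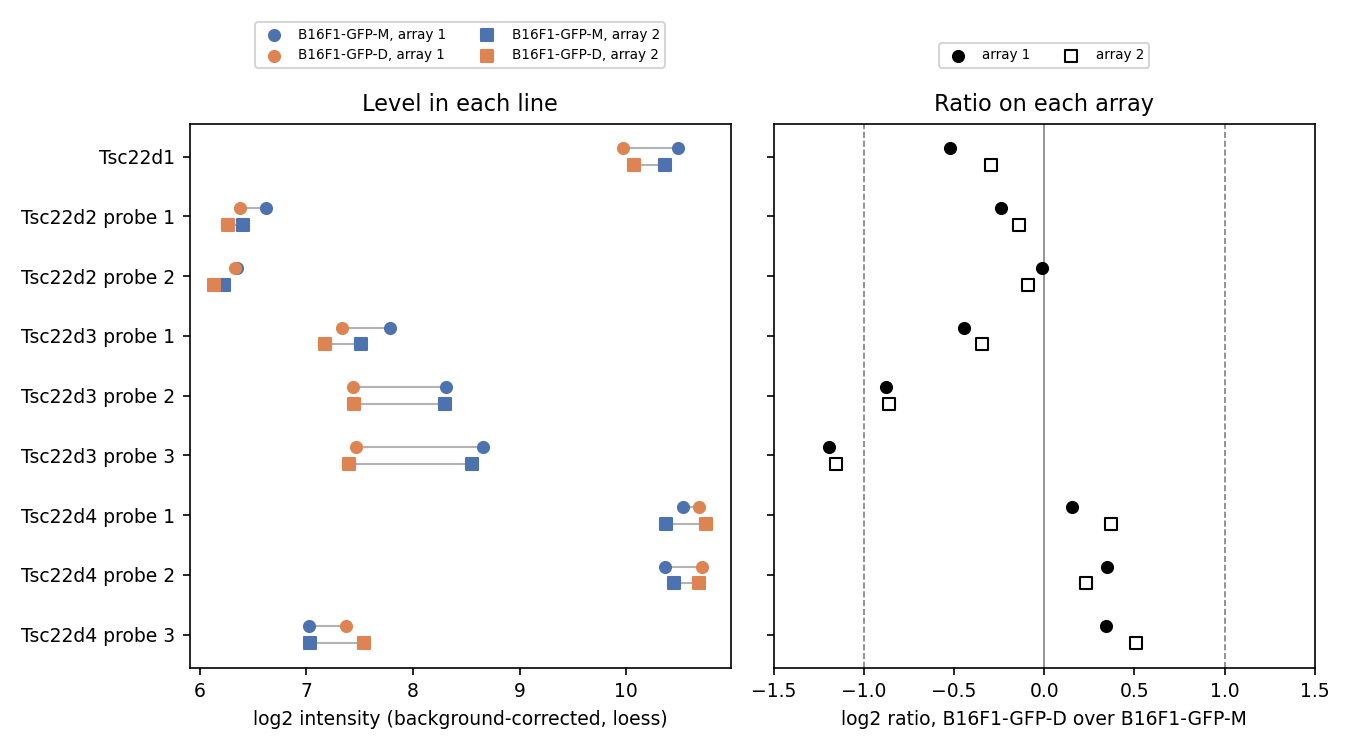
All 9 probes of the family, with the probes of a gene numbered from 5′ to 3′ along its strand. Left, log2 intensity after background correction and loess in B16F1-GFP-M (blue) and B16F1-GFP-D (orange) on array 1 (circles) and array 2 (squares); levels are not comparable between probes. Right, log2 ratio of B16F1-GFP-D to the maternal line on each array, with dashed lines at 2-fold. Of the 3 *Tsc22d3* probes, all left of 0, probe 3 lies beyond the dashed line on both arrays at -1.19 and -1.16.

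**Figure D2:**
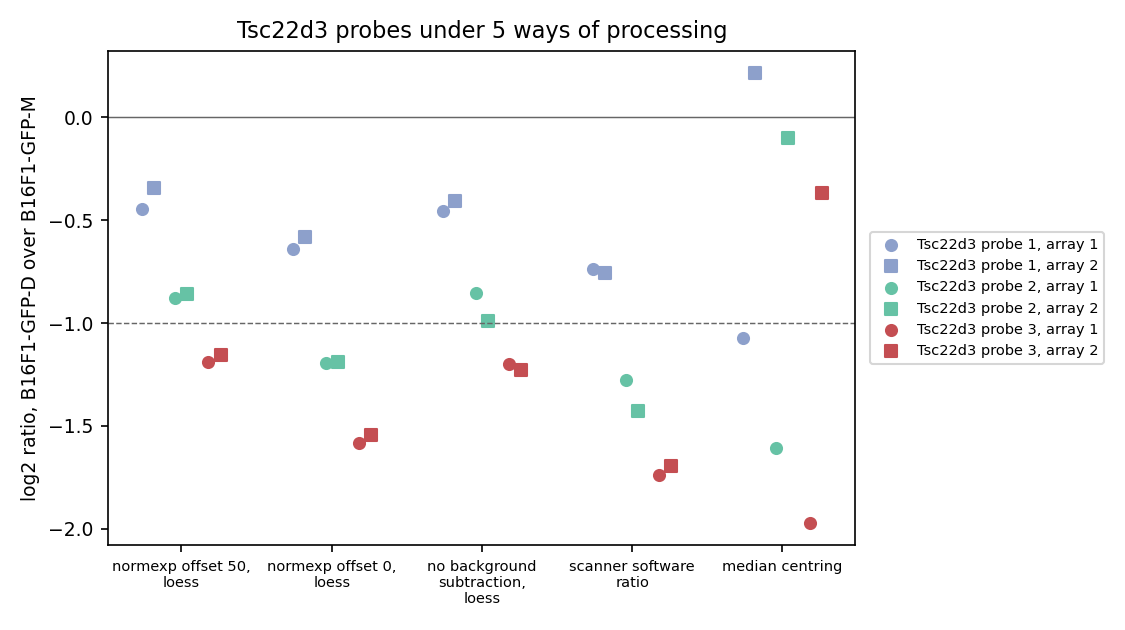
Log2 ratio of B16F1-GFP-D to B16F1-GFP-M for the 3 *Tsc22d3* probes on array 1 (circles) and array 2 (squares) under 5 ways of processing, with a dashed line at 2-fold lower. In each, the values descend from probe 1 to probe 3 on both arrays. With median centring the arrays separate, and probe 3 has -1.97 on array 1 and -0.37 on array 2.

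*Tsc22d1*, the TGF-beta-induced founder of the family, was measured by a single probe at chr14:76907276-76907335 on the plus strand, which the scanner output lists with 3 RefSeq transcript variants. Its log2 intensity was 10.48 and 10.37 in B16F1-GFP-M and 9.97 and 10.07 in B16F1-GFP-D, the lower level on each array. The log2 ratio was -0.52 on array 1 and -0.29 on array 2, a mean of -0.41 ± 0.16 and a 1.33-fold lower level. This was short of the 2-fold threshold, and 16.8% of detected genes had a lower mean ratio.

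*Tsc22d4*, known as a partner of the other family members in heterodimers, had a mean ratio above 0 at each of its 3 probes. They lie on the plus strand at chr5:138187434-138187493, chr5:138200670-138200729 and chr5:138209484-138209543, spread over 22110 bp. Probe 1, the brightest, had log2 intensities of 10.53 and 10.38 in B16F1-GFP-M and of 10.68 and 10.75 in B16F1-GFP-D. Its log2 ratio was 0.15 on array 1 and 0.37 on array 2, with a mean of 0.26 ± 0.15, or 1.20-fold. Probe 2 had a mean of 0.29 ± 0.08 and probe 3 of 0.42 ± 0.12. At each of these probes the B16F1-GFP-D level was the higher on each array, and none reached 2-fold. The range between the probes was 0.16, and 83.7% of the genes with 3 or more detected probes had a range at least as wide. Over all detected genes, 25.7% had a higher mean ratio than *Tsc22d4*.

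*Tsc22d2* was measured by probes at chr3:58264837-58264896 and chr3:58269966-58270025, on the plus strand. Each was well above background only in B16F1-GFP-M on array 1, where that line carried Cy5, and not in B16F1-GFP-M on array 2 nor in B16F1-GFP-D on either array. The raw signals of the brighter probe were 144 and 50.6 in B16F1-GFP-M, over local backgrounds of 70.5 and 21, and 47.5 and 110 in B16F1-GFP-D, over 21 and 71. Its mean log2 ratio was -0.19 ± 0.07 and that of the other probe -0.05 ± 0.05. In the scanner software's ratio, which adds no offset to dim spots, the brighter probe had -1.63. No difference between the lines was measurable at this signal, and *Tsc22d2* was kept out of the counts of calls.

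**Figure D3:**
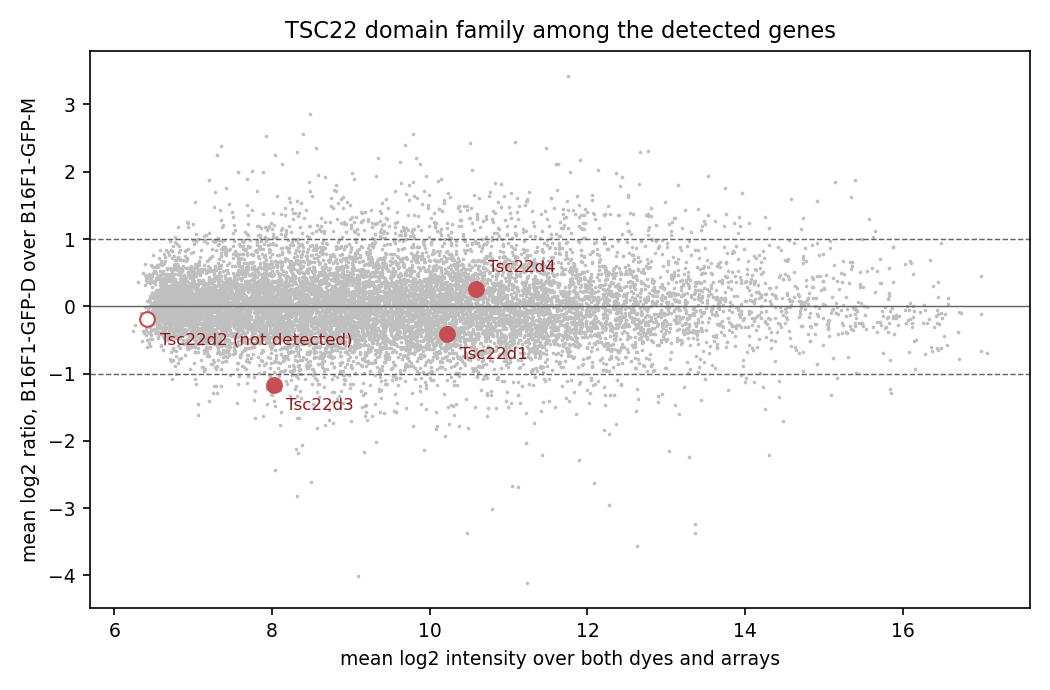
Mean log2 ratio of B16F1-GFP-D to B16F1-GFP-M against mean log2 intensity over both dyes and arrays, with 1 grey point for each of the 12540 detected genes, dashed lines at 2-fold and the family in red. *Tsc22d3* lies below the lower dashed line at a mean ratio of -1.17, *Tsc22d1* and *Tsc22d4* lie within both lines, and *Tsc22d2* (open circle) was not detected.

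The direction of each detected member's mean ratio held in 9 of 9 alternative ways of processing, but several of these could not differ. Scaling intensities between the arrays leaves every ratio unchanged, and the deposited value table repeats the scanner software's ratio. Reading each array alone repeats the ratios given above, and a gene called on both arrays must be called on each. The median of probes leaves *Tsc22d1*, with its single probe, as it was. *Tsc22d3* was called in 7 of the 9, with those that could not differ among them. The exceptions were median centring in place of loess and the median of its 3 probes in place of the brightest. With median centring the dye effect of each array remains in the ratios, and the median over the detected genes was -0.86 for array 1 and 1.02 for array 2. *Tsc22d1* then had -1.54 on array 1 and 0.95 on array 2, and *Tsc22d4* had -0.88 and 1.66. The signs of these members by array therefore depended on the correction of the dye effect, while probes 2 and 3 of *Tsc22d3* were below 0 on both arrays. Probe 1 of *Tsc22d3* changed sign too, with -1.07 on array 1 and 0.21 on array 2.

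The partners and regulators of the family were read from 4 gene lists, described by counts beside those of all detected genes, of which 5143 were higher on both arrays, 5363 lower on both and 2034 of opposite signs, with a median log2 ratio of -0.01. Of 14 genes for the NRBP pseudokinases, the WNK kinases, their downstream kinases and the cation-chloride cotransporters they control, 12 were detected. *Wnk3* is not among the named probes and *Wnk2* was not detected. On both arrays 3 were higher and 5 lower, and the median was -0.09. No gene was called higher and 1 of the 12 was called lower, against 3.09% higher and 1.94% lower of all detected genes. With so few genes this count is not read as a result about the list. The gene called was *Nrbp2*, which encodes a pseudokinase. It had log2 intensities of 10.75 and 10.62 in B16F1-GFP-M and 9.46 and 9.57 in B16F1-GFP-D, and log2 ratios of -1.28 and -1.05. The second detected probe of *Nrbp2*, however, had a mean of 0.01, so the probes of this gene disagree. Its paralogue *Nrbp1* had ratios of 0.25 and 0.26, and *Wnk1*, the most widely expressed WNK kinase, of -0.26 and -0.23. Detected probes differed in sign here too, with means from -0.06 to 0.25 for *Nrbp1* and from -0.25 to 0.03 for *Wnk1*.

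Of 18 genes for proteins that GILZ binds or that act on *Tsc22d3* or with its product, 15 were detected. On both arrays 4 were higher and 8 lower, and the median was -0.06. Of the 15, 2 were called higher and 1 lower, that is 3 in either direction, against 5.02% of all detected genes. The list was chosen with earlier results of these data known, so no enrichment is read from this count. *Fos*, an AP-1 subunit bound by GILZ, had log2 intensities of 6.52 and 6.96 in B16F1-GFP-M and 8.46 and 9.05 in B16F1-GFP-D, and ratios of 1.94 and 2.09, or 4.04-fold higher. The mean for *Fos*, 2.01 here, was 2.95 with an offset of 0 and 3.38 with the scanner software's ratio. *Sgk1*, a kinase induced by glucocorticoids and mineralocorticoids that acts with GILZ on sodium transport, had log2 intensities of 6.41 and 6.83 in B16F1-GFP-M, where it was well above background on 1 array of 2, and of 8.01 and 8.09 in B16F1-GFP-D. Its ratios were 1.60 and 1.26, a mean of 1.43 ± 0.24 or 2.70-fold higher, with the B16F1-GFP-M level on array 2 not well above background. The mean for *Sgk1* was 2.31 with an offset of 0 and 2.87 with the scanner software's ratio. *Cebpb*, the C/EBP family transcription factor of inflammation and adipocyte differentiation, had log2 intensities of 12.45 and 12.29 in B16F1-GFP-M and 9.69 and 9.72 in B16F1-GFP-D. Its ratios were -2.76 and -2.57, or 6.36-fold lower, and its second probe was also called, with a mean of -1.20. *Nr3c1*, which encodes the glucocorticoid receptor itself, had ratios of -0.02 and 0.06, and the means of its detected probes ran from -0.24 to 0.02. *Foxo3*, a FOXO factor that induces *Tsc22d3*, was not detected, and neither were *Foxo4* and *Nr3c2*, the mineralocorticoid receptor.

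All 11 genes of TGF-beta signalling to *Tsc22d1* were detected, with 2 higher and 5 lower on both arrays and a median of -0.07. None was called. The mean ratios largest in size were those of *Smad4*, the common partner of the receptor-regulated SMADs, at -0.56 ± 0.22, and of *Smad3*, a receptor-regulated SMAD, at 0.54 ± 0.04. The second detected probe of *Smad4* had -0.10.

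Of 11 genes that glucocorticoids induce in many cell types, read as a comparison for *Tsc22d3*, 10 were detected and *Zbtb16* is not among the named probes. On both arrays 6 were higher and 3 lower, and the median was 0.24. Of the 10, 1 was called higher and 1 lower, against 3.09% higher and 1.94% lower of all detected genes. This list too was chosen with earlier results of these data known, so no enrichment is read from the count. The gene called higher was *Sgk1*, which also stands in the list above. The gene called lower was *Ddit4*, an inhibitor of mTORC1 signalling that stress also induces, with log2 intensities of 13.04 and 13.42 in B16F1-GFP-M and 11.39 and 11.57 in B16F1-GFP-D. Its ratios were -1.66 and -1.85, or 3.37-fold lower. *Tsc22d3* and *Ddit4* were thus lower and *Sgk1* higher in the same line. No other gene of the list was called. Nearest to the threshold were the metallothionein genes *Mt1*, at 0.90 and 1.12, and *Mt2*, at 0.72 and 1.04, and *Cebpd*, a C/EBP family transcription factor, at -1.06 and -0.94. The second detected probe of *Mt1* had a mean of 0.17, so the probes of this gene disagree. Further from the threshold were *Dusp1* at 0.48 and 0.80, *Errfi1* at 0.18 and 0.06, and *Per1*, a clock gene, at 0.09 and -0.03. *Fkbp5*, which encodes a co-chaperone of the glucocorticoid receptor, had 0.35 on each array. *Klf9*, a Krüppel-like factor, had -0.66 and -0.81, and its second detected probe a mean of -0.20. These uncalled genes were named after their values had been seen.

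**Figure D4:**
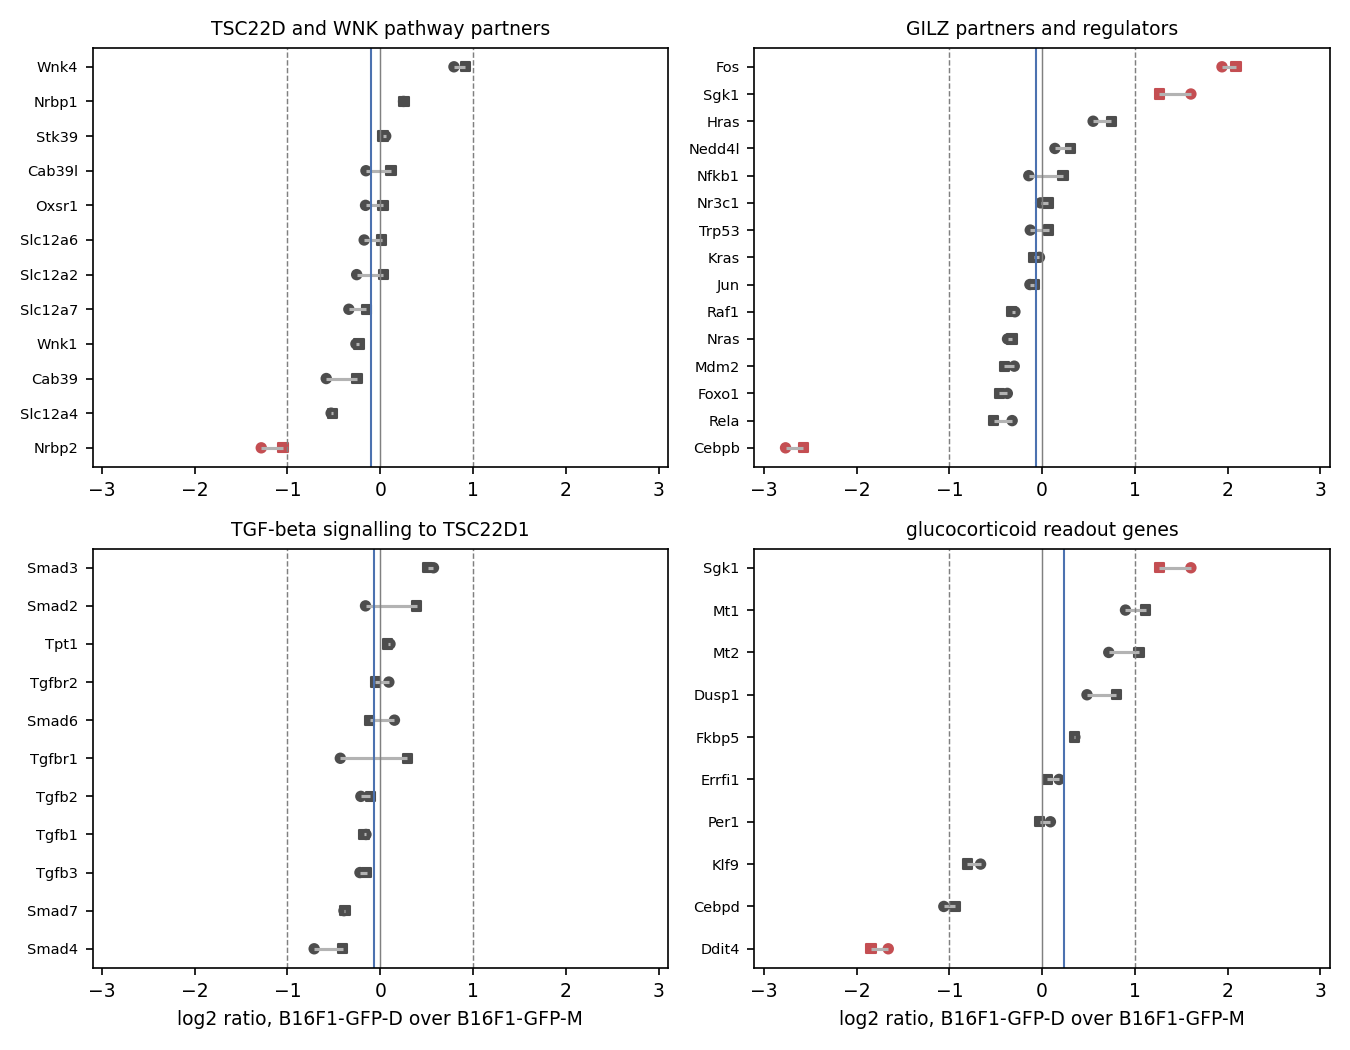
Log2 ratio of B16F1-GFP-D to B16F1-GFP-M on array 1 (circles) and array 2 (squares) for the detected genes of the 4 lists, sorted by mean. Red marks the genes called on both arrays, dashed lines stand at 2-fold and the blue line is the median of the list. Outside the TGF-beta list, where none was called, *Nrbp2*, *Cebpb* and *Ddit4* lie beyond the lower line, and *Fos* and *Sgk1* beyond the upper.

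The genes whose pair of ratios lay nearest to that of *Tsc22d3* were *Foxc1*, a forkhead transcription factor, at -1.19 and -1.16, the transcript ENSMUST00000140736 at -1.20 and -1.17, and *Ccdc17* at -1.21 and -1.17. The measure was Euclidean distance over 2 arrays, and 36 other detected genes lay within 0.1 of *Tsc22d3* on both, so this likeness singles out no gene. Within 100 kb of the *Tsc22d3* probes, *Prps1*, which encodes a phosphoribosyl pyrophosphate synthetase, lay 63.7 kb away with log2 ratios of 0.40 and 0.95. Both values were above 0, on the other side from *Tsc22d3*, and the gene was not called. The only other named probe target in that window, the cDNA AK030494, was not detected.

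The label of the lines as melanoma was read from markers of melanocytes, of which 7 of 7, *Tyr*, *Tyrp1*, *Dct*, *Pmel*, *Mlana*, *Mitf* and *Sox10*, were well above background on both arrays in each line, and none was called, with mean ratios from -0.92 to 0.30. GILZ is abundant in leukocytes. By the same criterion, of 6 leukocyte markers 1 was above background in B16F1-GFP-M and 2 in B16F1-GFP-D, these being *Lyz2* and *Cd3e*, and their mean ratios ran from -0.17 to 0.05, while *Ptprc*, the pan-leukocyte marker, did not meet it in either line. Of 6 fibroblast markers 1 and 2 were above background, and of 4 endothelial markers 0 in either line. The part of other cell types in the family's values was not tested.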

How the data were processed

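Total RNA of both lines was hybridised to 2 Agilent 2-colour arrays on 1 slide, with the dyes exchanged. The deposited scanner output, made by the authors with Agilent Feature Extraction 10.7.3.1, holds the mean signal intensity and median local background per spot and a log10 ratio of Cy5 over Cy3. The deposited value table holds log10 ratios on the same scale. With limma 3.58.1 in R 4.3.3, background was corrected by normexp (offset 50) and the dyes were balanced by a loess fit per array that gave control and outlier spots a weight of 0. The offset draws the ratios of dim spots towards 0. Ratios were turned so that B16F1-GFP-D stands over the maternal line on the log2 scale, and the correlation of the arrays was 0.927 after turning. Over every probe, detected or not, the correlation was smaller in size, at -0.847 before turning. The loess leaves the mean intensity of an array unscaled, so levels are compared within an array. Of 28075 probes with a RefSeq accession, 27198 matched a current symbol (RefSeq table of GRCm38.p6, used for names only), and other probes kept the name in the scanner output. The named genes were all members, each gene of a list called or, where none was, the 2 largest in size, *Nr3c1*, *Foxo3*, *Nrbp1* and *Wnk1*, the 3 genes nearest to *Tsc22d3*, and neighbours within 100 kb of a called member. Outside this rule, the uncalled glucocorticoid readout genes, the undetected list genes and the markers were also named. The members and lists were chosen with earlier results of these data known. The procedure was also run on simulated arrays with random noise on each array. These held no variation between cultures or clones, so they do not bear on that limit. With 2 arrays and 1 replicate per line, the number of arrays limits the precision and no p-value was computed.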

Additional observations from a re-analysis of the deposited data

How the results depend on the processing

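The threshold of 2-fold on both arrays called 630 genes. It called 1356 with the scanner software's ratio, 1352 with the deposited value table, 1077 with an offset of 0 and 64 with median centring, and 1980 at 1.5-fold and 123 at 3-fold. *Tsc22d3* had -1.72 with the scanner software's ratio and with the value table, -1.56 with an offset of 0 and -0.87 with the median of its probes. *Tsc22d2*, which was not detected, had -1.63, -1.63 and -0.56 with the first 3 of these. The median of the GILZ list, -0.06 above, was 0.021 with median centring, -0.012 with each gene at the median of its probes and -0.13 on array 1 alone. That of the TGF-beta list was -0.12 with the scanner software's ratio and with the value table and -0.16 on array 1 alone. That of the glucocorticoid list was 0.35 with either of those, 0.33 with an offset of 0 and 0.12 when each gene had to pass the background flag in both lines. That of the NRBP and WNK list changed sign on array 2 alone, where it was 0.016. Apart from the offset, which by construction shrinks dim ratios, and the thresholds, the cause of these changes was not tested. No paired analysis was possible because there is 1 replicate of each line. The arrays share 1 slide, so it could not enter as a block. Signal over background limits both *Tsc22d2* probes, and the 3 *Tsc22d3* probes and probe 3 of *Tsc22d4* were dim.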
